A study of Mus musculus with 8 samples.

Results

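The IFIT genes encode the interferon-induced proteins with tetratricopeptide repeats. They were taken here as every gene of the deposited count table whose mouse symbol begins with Ifit followed by a digit, which gives 6 of the 18088 genes in the table: Ifit1, Ifit1bl1, Ifit1bl2, Ifit2, Ifit3 and Ifit3b. The counts come from poly(A) RNA of differentiated 3T3-L1 cells, a wild-type mouse fibroblast line that can be made into cells resembling adipocytes. The study asked how the atypical MAP kinase ERK3 acts in adipocytes, and the RNA sequencing asked what changes when its mRNA is silenced. In the siErk3 group (4 libraries) the mature cells were detached with Accutase, transfected in suspension on Matrigel with a pool of siRNAs against Erk3 at 1.25 nM per square centimeter and collected 48 h later. The siNTC group (4 libraries) was treated alike with a pool of nontargeting siRNAs. With a single pool on each side, the loss of Erk3 and any other property of the siErk3 pool cannot be told apart, and the sources used here do not say whether the replicates were separate cultures, so p-values reflect the scatter of these libraries alone. Total counts were 9887357 to 9943572 per siErk3 library and 9854522 to 9920350 per siNTC library. Mapk6, which encodes ERK3, was at 69.6 ± 4.80 CPM in siErk3 cells and 579 ± 18.1 CPM in siNTC cells (SD, n = 4 libraries each) and fell by 3.06 on the log2 scale (SE 0.06, edgeR adjusted p = 2.09e-22), where CPM stands for counts scaled to library size after TMM.

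Type I interferons bind IFNAR1 and IFNAR2, the kinases JAK1 and TYK2 phosphorylate STAT proteins, and these form the complex ISGF3 with IRF9. ISGF3 binds the interferon-stimulated response element in front of its target genes, and IRF3 or IRF7 can reach the same element when an RNA sensor has been engaged. IFIT genes are among the classical targets of this route, kept low in resting cells and strongly induced by interferon, double-stranded RNA or viral infection. IFIT proteins are built from helical repeats. IFIT1 binds RNA whose cap lacks methylation of the first ribose and keeps it from being translated, several IFIT proteins bind the translation factor eIF3, and human IFIT3 binds and stabilizes IFIT1.

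The 6 genes lie next to each other on chromosome 19 of mm10, within 99316 bases (34550694 to 34650009). In order along the chromosome they are Ifit2 (plus strand, 34550694 to 34576419), Ifit3 (plus, 34583531 to 34588731), Ifit1bl1 (minus, 34592891 to 34601956), Ifit3b (plus, 34607970 to 34613401), Ifit1bl2 (minus, 34617049 to 34640743) and Ifit1 (plus, 34640871 to 34650009). None of them shares exonic bases with another annotated gene in GENCODE M21. Ifit1bl2 and Ifit1 point away from each other, with 128 bases between their starts in that annotation.

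Promoters are shown because the family is known for this element and its members moved together. RefSeq windows of 300 bases (250 before and 50 after each start, build GRCm38.p6) were available for all 6 genes and were searched on both strands for the core of the element, GAAANNGAAA, which reads TTTCNNTTTC on the other strand. Each line gives the stretch that holds the matches with 20 bases on either side, 5′ to 3′ on the strand of the gene, and the capitals mark the matches. The stretches are chr19:34640765-34640833 (plus strand) for Ifit1, chr19:34640765-34640833 (minus strand) for Ifit1bl2, chr19:34583353-34583436 (plus strand) for Ifit3, chr19:34607749-34607832 (plus strand) for Ifit3b and chr19:34602043-34602092 (minus strand) for Ifit1bl1.
Ifit1: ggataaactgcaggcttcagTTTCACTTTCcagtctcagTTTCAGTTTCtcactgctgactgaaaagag
Ifit1bl2: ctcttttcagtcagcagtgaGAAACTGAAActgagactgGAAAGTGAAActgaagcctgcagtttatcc
Ifit3: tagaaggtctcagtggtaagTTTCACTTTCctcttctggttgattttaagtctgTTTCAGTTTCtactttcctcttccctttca
Ifit3b: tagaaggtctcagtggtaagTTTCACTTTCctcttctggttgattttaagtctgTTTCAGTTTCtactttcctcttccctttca
Ifit1bl1: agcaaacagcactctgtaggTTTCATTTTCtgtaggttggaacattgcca

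Distances here are counted from the RefSeq starts. Those of the printed stretches lie 18 bases from the annotated 5′ end for Ifit1, 13 for Ifit3b, 12 for Ifit1bl1, 2 for Ifit3 and 0 for Ifit1bl2. Ifit1 and Ifit1bl2 share 1 intergenic stretch with 2 matches, read from opposite strands. The first bases of the matches lie 104 and 85 bases before the Ifit1 start and 70 and 51 bases before the Ifit1bl2 start. Ifit3 and Ifit3b each hold 2 matches, beginning 156 and 122 bases before the start of Ifit3 and 188 and 154 bases before that of Ifit3b, and the 84 bases printed for them do not differ at any position. Ifit1bl1 has 2 windows with 1 match each, beginning 104 bases before the start nearest to the annotated 5′ end of the gene (printed above) and 23 bases before a start that lies 2529 bases downstream of that end. The letters were not found in the second window listed for Ifit1bl2, nor in either of the 2 windows listed for Ifit2. The search found at least 1 match in 3.44% of all 32851 RefSeq windows of this length and at least 2 in 0.225% of them. Counted per gene, the motif was in a window of 3.99% of all 27025 genes and in 37 of the 70 other genes with a window that were at least 16-fold higher in siErk3 cells (52.9%), a set chosen by its values here and given without a test. A match is a run of letters, and binding was not measured here.

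All 6 IFIT genes were higher in siErk3 cells than in siNTC cells, and none was lower, in edgeR's quasi-likelihood test at a Benjamini-Hochberg adjusted p under 0.05. Of the 17972 genes tested, 24.9% were called higher and 23.8% lower. For each of the 6 genes every siErk3 library had a higher CPM than every siNTC library, as was the case for 22.5% of the genes tested. The exact two-sided permutation test over the 8 libraries gave p = 0.02857 for each, the smallest p that 4 against 4 can give. The deposited table holds genes above 1 CPM in at least 4 of the 8 libraries. Ifit1 and Ifit1bl1 were above 1 CPM in 0 of the 4 siNTC libraries, so they are in the table only through the siErk3 libraries and had to differ. Ifit1bl2 was above 1 CPM in 2 siNTC libraries and so needed siErk3 libraries to pass as well. Ifit2, Ifit3 and Ifit3b were above 1 CPM in all 8 libraries. In bulk RNA, more cells that express a gene and more RNA per cell cannot be told apart.

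Ifit1, the cap-binding member, had 359, 390, 372 and 438 CPM in the siErk3 libraries (replicates 1 to 4), against 0.208, 0.207, 0.313 and 0.736 CPM in the siNTC libraries. These are 3718 to 4430 counts per siErk3 library against 2 to 7 per siNTC library. Ifit1 was thus abundant in every siErk3 library and close to the limit of detection in every siNTC library. The log2 fold change was 10.01 (SE 0.14, edgeR adjusted p = 6.41e-25), the largest of the family and the 6th largest of all genes tested. The pooled counts of 15921 in siErk3 and 14 in siNTC give a ratio of 1068 (95% exact interval 636 to 1954, counting error only). Of the 14 siNTC counts, 7 came from replicate 4, and without that library the log2 fold change was 10.58.

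Ifit1bl1 and Ifit1bl2 are relatives of Ifit1, with coding sequences identical to that of Ifit1 over 74.5% and 73.9% of the alignment and to each other over 87.6% of it. Ifit1bl1 had 12.5, 12.8, 12.5 and 15.5 CPM in the siErk3 libraries, against 0.104, 0.103, 0 and 0 CPM in the siNTC libraries. With 544 counts in siErk3 and only 2 in siNTC, the ratio of 255 has a wide exact interval (70.4 to 2114), and the fitted log2 fold change of 7.69 (SE 0.31, edgeR adjusted p = 8.57e-16) depends on the small count that edgeR adds. It was the least abundant member in both groups. Ifit1bl2 had 37.0, 38.2, 38.4 and 41.3 CPM in the siErk3 libraries, against 1.35, 0.826, 1.57 and 0.316 CPM in the siNTC libraries. Its log2 fold change of 5.24 (SE 0.16, edgeR adjusted p = 2.34e-18) was the smallest of the 6, a 38.2-fold difference between the mean CPM values.

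Ifit2 had 469, 438, 424 and 513 CPM in the siErk3 libraries, against 1.46, 1.24, 1.77 and 1.47 CPM in the siNTC libraries. The siNTC values stayed within a narrow range, and the log2 fold change was 8.27 (SE 0.10, edgeR adjusted p = 1.76e-25), a 310.2-fold difference between the means. Ifit3, known as a partner of other IFIT proteins and, in human cells, as an adaptor that joins the kinase TBK1 to the sensor adaptor MAVS, had 915, 948, 938 and 954 CPM in the siErk3 libraries, against 2.19, 3.41, 2.61 and 2.84 CPM in the siNTC libraries. It had the most counts of the family in every library, and its log2 fold change was 8.40 (SE 0.09, edgeR adjusted p = 9.64e-27). Ifit3b, a near-identical copy of Ifit3, had 480, 480, 464 and 502 CPM in the siErk3 libraries, against 2.08, 2.07, 1.88 and 1.79 CPM in the siNTC libraries. Its log2 fold change was 7.94 (SE 0.08, edgeR adjusted p = 9.64e-27).

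**Figure D1:**
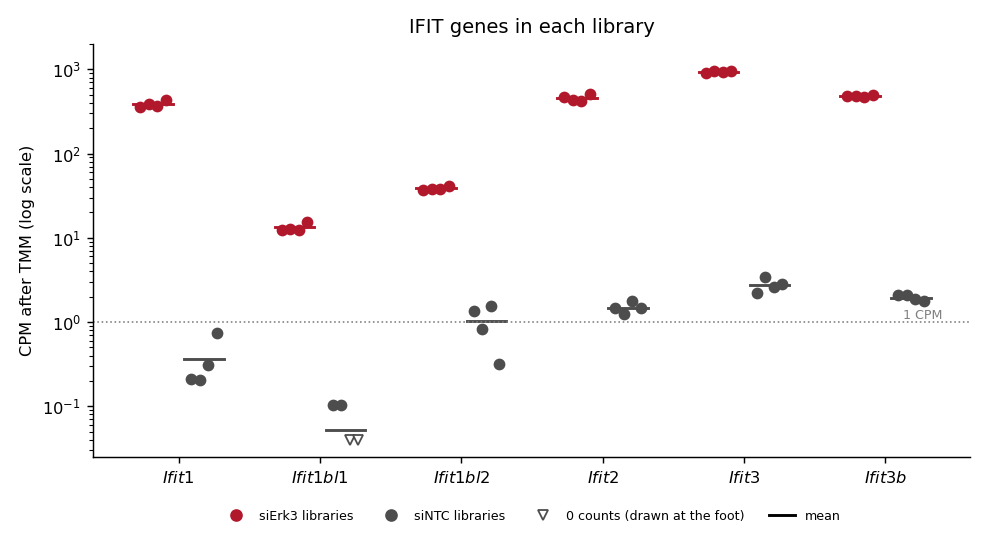
CPM after TMM of the 6 IFIT genes on a log axis, with 1 point per library, siErk3 left and siNTC right within each gene, and a bar at the mean. The siErk3 points of Ifit3 lie at 915 to 954 CPM and its siNTC points at 2.19 to 3.41 CPM, and no gene has groups that overlap. Open triangles stand for 2 siNTC libraries with 0 counts of Ifit1bl1, and the dotted line marks 1 CPM.

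Within the siErk3 group the genes differed in how far the libraries lay apart. The coefficient of variation was 8.89% for Ifit1 and 8.61% for Ifit2, where counting error alone gives 1.59% and 1.46%. It was 1.86% for Ifit3 and 3.19% for Ifit3b, against counting errors of 1.02% and 1.43%. Replicate 4 was the highest siErk3 library for all 6 genes. It was also the siErk3 library with the lowest Mapk6, at 63.5 CPM against 68.5 to 74.8 CPM in the other siErk3 libraries. A link between these levels was not tested, and the observation rests on a single library. Without replicate 4 the log2 fold change was 9.95 for Ifit1, 7.61 for Ifit1bl1 and 5.21 for Ifit1bl2. For Ifit2 it was 8.21, for Ifit3 8.40 and for Ifit3b 7.92.

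Levels of different genes were compared per kilobase of annotated exons. In siErk3 cells Ifit3 led at 538 ± 10.03 CPM per kilobase (SD, n = 4), followed by Ifit3b at 241 ± 7.69, Ifit1 at 147 ± 13.0, Ifit2 at 117 ± 10.1, Ifit1bl2 at 11.5 ± 0.546 and Ifit1bl1 at 5.89 ± 0.656 CPM per kilobase. No neighbours in this order had overlapping ranges. In siNTC cells the order was Ifit3 at 1.58 ± 0.292, Ifit3b at 0.977 ± 0.0721, Ifit2 at 0.378 ± 0.0560, Ifit1bl2 at 0.302 ± 0.167, Ifit1 at 0.138 ± 0.0948 and Ifit1bl1 at 0.0229 ± 0.0265 CPM per kilobase. There the ranges of Ifit2 and Ifit1bl2 overlapped, as did those of Ifit1bl2 and Ifit1. Among the 17934 genes with an annotated length, Ifit3 ranked 87 by mean level per kilobase in siErk3 cells and 14613 in siNTC cells, and Ifit1 ranked 408 in siErk3 cells and 17741 in siNTC cells.

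Together the 6 genes took 23098 to 24920 counts per siErk3 library and 68 to 78 counts per siNTC library. This is 0.239 ± 0.00833% of all counts in siErk3 libraries and 0.000741 ± 0.0000459% in siNTC libraries (SD, n = 4 each). The make-up of this total differed between the groups. Ifit1 made up 16.8% of the pooled IFIT counts in siErk3 cells and 4.78% in siNTC cells (exact 95% interval for siNTC 2.64 to 7.89%). Ifit1bl2 made up 1.67% in siErk3 cells and 13.3% in siNTC cells (9.64 to 17.7%). The share of Ifit2 was 19.8% in siErk3 cells and lay inside the interval of the siNTC share (15.1 to 24.5%), and Ifit3 held the largest share in both groups, 40.4% in siErk3 cells and 36.2% in siNTC cells (30.7 to 42.0%). The siNTC shares rest on 293 counts pooled over 4 libraries. Their intervals hold counting error only and leave out the scatter between libraries, where the share of Ifit1bl2 ran from 4.41 to 19.2%.

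**Figure D2:**
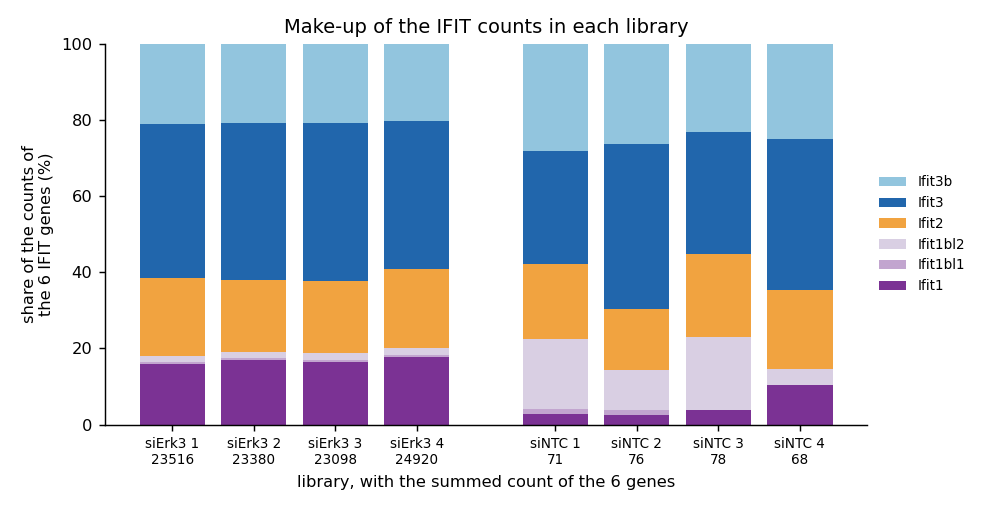
Share of each IFIT gene in the summed counts of the 6 genes, in percent, 1 bar per library with siErk3 left and siNTC right, and the summed count under each bar. Ifit1 takes 15.8 to 17.8% in siErk3 libraries and 2.63 to 10.3% in siNTC libraries, while Ifit1bl2 takes 1.63 to 1.71% in siErk3 libraries and 4.41 to 19.2% in siNTC libraries.

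Whether the members changed by unequal amounts was tested on the log2 ratio of 2 members within a library, which does not depend on the scaling between libraries (0.5 counts added to each). Of the 15 pairs, 11 differed between the groups by an exact two-sided permutation test over the 8 libraries, each with p = 0.02857 and an adjusted p of 0.03896 over the pairs. Ifit1 and Ifit1bl1 are in the table only through the siErk3 libraries, so the pairs that hold either of them are not free of that filter. Ifit1bl2 also needed siErk3 libraries to pass it, so its pairs are not free of it either. Ifit3 with Ifit3b was the only pair to differ that holds none of these members. Ifit1 gained on each of the other 5 members. Its log2 ratio to Ifit2 was -0.24 ± 0.10 in siErk3 cells and -2.03 ± 0.73 in siNTC cells (SD, n = 4 each), a difference of 1.79, and the difference was 1.63 against Ifit3 and 2.12 against Ifit3b. Ifit1bl2 lost ground to each of the other 5. Its log2 ratio to Ifit3 was -4.60 ± 0.05 in siErk3 cells and -1.59 ± 1.11 in siNTC cells, a difference of -3.01, and the difference was -2.85 against Ifit2 and -2.52 against Ifit3b.

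Ifit1 and Ifit1bl2 thus stood furthest apart although their starts are neighbours. Their log2 ratio was 3.33 ± 0.06 in siErk3 cells and -1.31 ± 1.63 in siNTC cells, a difference of 4.64. In siNTC replicate 4, which had 7 counts of Ifit1 and 3 of Ifit1bl2, Ifit1 had the higher count, and in the other siNTC libraries Ifit1bl2 had. Without that library the difference was 5.44, and that between Ifit1 and Ifit1bl1 was 3.44 in place of 2.82. The ratio of Ifit3 to Ifit3b was 0.96 ± 0.04 on the log2 scale in siErk3 cells and 0.47 ± 0.29 in siNTC cells, a difference of 0.49. The other 4 pairs did not pass. The difference was -0.17 for Ifit2 and Ifit3 (exact permutation p = 0.4), 0.33 for Ifit2 and Ifit3b (p = 0.08571, exact), -1.03 for Ifit1bl1 and Ifit2 (p = 0.1143, exact) and -0.71 for Ifit1bl1 and Ifit3b (p = 0.1714, exact), and the ratios to Ifit1bl1 rest on 2 counts of it in siNTC cells.

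**Figure D3:**
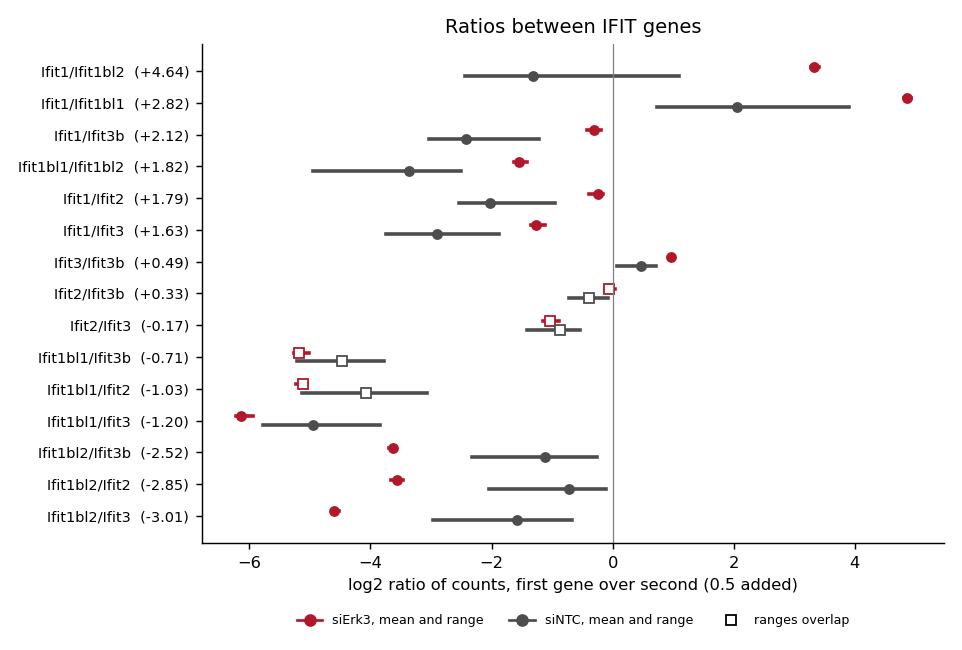
Log2 ratio of counts between the members of each of the 15 pairs of IFIT genes, with the mean (symbol) and the range over 4 libraries (line), siErk3 above siNTC in each pair and the difference siErk3 minus siNTC in brackets. Open squares mark the 4 pairs whose ranges overlap. Ifit1 over Ifit1bl2 shows the largest difference, 4.64.

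Ifit3 and Ifit3b have coding sequences of 1212 bases each that are identical at 1201 positions (99.1%). Of the 50-base stretches of the Ifit3 transcript, 51.2% also occur in Ifit3b, and 44.5% of those of Ifit3b occur in Ifit3. How reads that fit both were counted is not given in the sources used here, so the split between these genes is uncertain. Summed into 1 feature, they had a log2 fold change of 8.23. Ifit1 shares 7.06% of its 50-base stretches with Ifit1bl2, and Ifit1bl2 shares 5.55% with Ifit1 and 4.22% with Ifit1bl1. The part of such reads in the low level of Ifit1bl1 and Ifit1bl2 was not tested. No 50-base stretch of Ifit2 occurs in a transcript of another gene.

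The count table held 4 other genes within 300 kb of the cluster. Fas, a death receptor, was at 18.8 ± 1.59 CPM in siErk3 cells and 8.85 ± 1.24 CPM in siNTC cells, a log2 fold change of 1.08 (SE 0.11, edgeR adjusted p = 1.07e-08). Lipa, the lysosomal acid lipase, had a log2 fold change of 0.19 (edgeR adjusted p = 0.00328). Pank1, a pantothenate kinase of coenzyme A synthesis, fell by 0.38 (edgeR adjusted p = 0.000172), and Kif20b, a mitotic kinesin near 1 CPM, fell by 0.61 (edgeR adjusted p = 0.0466). Lipa did not pass under upper-quartile scaling (adjusted p = 0.05598), and Kif20b lost its call under 10 alternatives. The smallest log2 fold change within the cluster, 5.24, was thus above that of every measured neighbour.

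**Figure D4:**
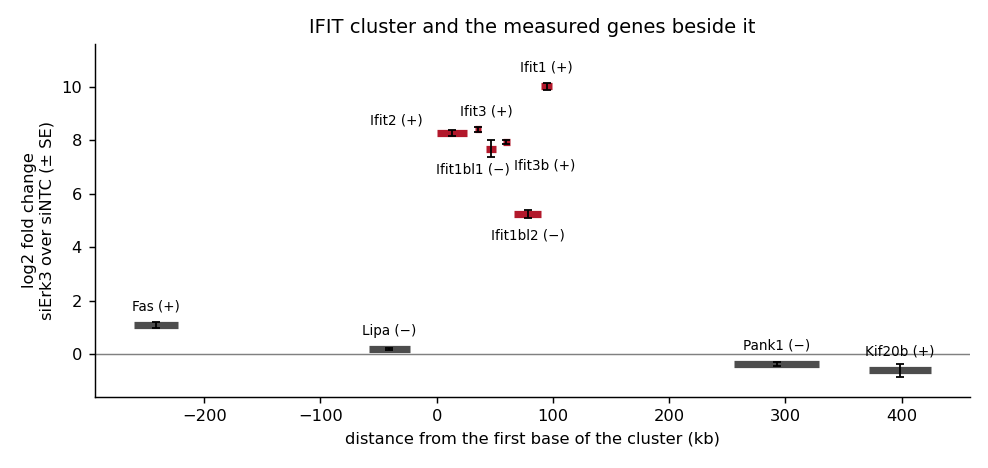
Log2 fold change (siErk3 over siNTC, error bars SE) of the 6 IFIT genes (red) and the 4 measured genes beside them (grey) against distance in kilobases from the first base of the cluster. Thick lines span each gene and the sign gives its strand. The IFIT genes lie at 5.24 to 10.01 and the neighbours at -0.61 to 1.08.

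The route that leads to IFIT genes was read from lists written with earlier results of these data known. Over all genes tested the median log2 fold change was 0.000946, with 24.9% called higher and 23.8% called lower. None of the 20 interferon ligand genes listed, among them Ifnb1 and the Ifna genes, was in the count table, so no ligand mRNA was measured here. Of the 8 receptor and JAK kinase genes measured, 7 were higher and 1 lower in siErk3 cells, with a median log2 fold change of 0.58. Ifnar1, a chain of the type I receptor, was at 86.9 ± 3.62 CPM in siErk3 cells and 61.5 ± 1.85 CPM in siNTC cells (log2 fold change 0.50, SE 0.05), and Jak2, a kinase of the interferon-γ receptor, rose by 1.00 on the log2 scale. Ifngr1, the ligand-binding chain of that receptor, fell by 0.22, a call that did not hold with library sizes only (adjusted p = 0.05762).

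Of 7 STAT and IRF genes reported, 5 were higher, 1 was lower and 1 did not pass, with a median of 1.30. Stat2, a subunit of ISGF3, was at 273 ± 2.72 CPM in siErk3 cells and 23.7 ± 1.32 CPM in siNTC cells (log2 fold change 3.53). Irf7, which amplifies the response, was at 301 ± 13.0 CPM in siErk3 cells and 7.04 ± 0.586 CPM in siNTC cells (5.41). Irf3, the factor that sensors activate without new synthesis, fell by 0.25, and Irf5 was at 26.4 ± 1.03 CPM in siErk3 cells and 27.5 ± 2.18 CPM in siNTC cells without passing. With library sizes only Irf3 had an adjusted p of 0.06434.

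Of 13 RNA sensors and adaptors measured, 11 were higher, 1 was lower and 1 did not pass, with a median of 2.13. Ddx58, which encodes the sensor RIG-I, was at 314 ± 7.87 CPM in siErk3 cells and 18.6 ± 1.92 CPM in siNTC cells (log2 fold change 4.08). Dhx58, encoding its regulator LGP2, was at 141 ± 1.70 CPM in siErk3 cells and 2.74 ± 0.395 CPM in siNTC cells (5.68), and Eif2ak2, encoding the kinase PKR, was 2.23 higher on the log2 scale. Mavs, the adaptor to which IFIT3 binds TBK1, fell by 0.31, with 56.1 ± 1.76 CPM in siErk3 cells and 69.5 ± 4.88 CPM in siNTC cells.

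The genes behind the partners and the RNA substrates of IFIT proteins had medians near that of all genes. Of 13 genes of cap formation and cap methylation measured, 5 were higher, 2 were lower and 6 did not pass (median 0.11), and 8 were higher with library sizes only. Cmtr1, which methylates the first ribose and so makes the cap that IFIT1 does not bind, was at 143 ± 3.39 CPM in siErk3 cells and 77.6 ± 2.91 CPM in siNTC cells, a log2 fold change of 0.88 (SE 0.05). Dxo, which removes faulty caps, fell by 0.54. Of the 14 eIF3 subunits, 5 were higher, 2 were lower and 7 did not pass (median 0.06). They ran from Eif3a, which fell by 0.48, to Eif3f, which rose by 0.22. Beside these counts, 24.9% of all genes tested were called higher and 23.8% lower. With upper-quartile scaling 1 eIF3 subunit was higher.

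Genes of other interferon-stimulated families were higher as well. All 17 antiviral effector and feedback genes listed were higher in siErk3 cells, with a median of 8.09, against 24.9% of all genes tested. Of the 17, 11 were under 1 CPM in at least 1 siNTC library and needed siErk3 libraries to pass the filter of the table. Those above 1 CPM in no siNTC library, such as Oasl2, Oas2 and Rsad2, had to be higher. The filter thus fixed part of this count. Bst2, which tethers budding virus, was at 637 ± 22.3 CPM in siErk3 cells and 7.12 ± 0.613 CPM in siNTC cells (log2 fold change 6.48), and Isg15, a ubiquitin-like modifier, was at 261 ± 25.1 CPM in siErk3 cells and 1.02 ± 0.380 CPM in siNTC cells (7.99). Of 7 IFITM genes, membrane proteins that block viral entry and share only part of their name with IFIT, 3 were in the table and higher. Among them Ifitm6, above 1 CPM in no siNTC library, had to be higher. Ifitm3 was at 701 ± 31.4 CPM in siErk3 cells and 14.3 ± 0.856 CPM in siNTC cells (5.62), and Ifitm2 was 0.55 higher.

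**Figure D5:**
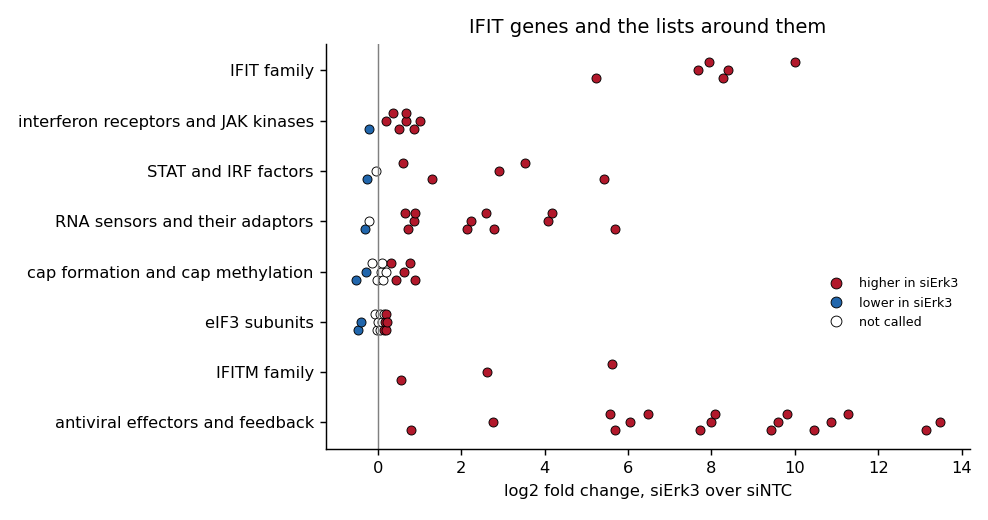
Log2 fold change between siErk3 and siNTC for the IFIT family and the measured genes of 7 lists, 1 point per gene, filled where edgeR called it higher (red) or lower (blue). The IFIT genes span 5.24 to 10.01, the receptor and JAK genes -0.22 to 1.00 and the eIF3 subunits -0.48 to 0.22. The fitted values of effectors with no siNTC counts (Oas3 and Oas1a, furthest right) depend on the count that edgeR adds.

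The genes whose pattern was most like that of each member were found by the Euclidean distance between log2 CPM profiles over the 8 libraries, centred on the gene's own mean with a prior count of 2. For Ifit1 the nearest was Rsad2, which encodes viperin, at a distance of 0.708, followed by Oasl2, Oas2, Oas3 and Oas1a. For Ifit2 it was Apol9b at 0.866, and for Ifit3b it was Apol9b at 0.498. For Ifit3 it was Oas1g at 0.803, for Ifit1bl1 Mndal at 0.467 and for Ifit1bl2 Gm4070 at 0.862. Between members, Ifit2 lay 0.619 from Ifit3b and 0.764 from Ifit3, while Ifit1 lay 2.22 from Ifit2 and 6.57 from Ifit1bl2. These distances follow mainly the change in log2 CPM with that prior count, which damps the change of genes with few counts. A small distance is therefore not a like fold change. Ifit1bl1, at a fitted log2 fold change of 7.69, lay nearest to Mndal, at 5.66. The distances carry no test.

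The cell type was checked against marker genes. Adipocyte genes were abundant in both groups, and 10 of 11 were lower in siErk3 cells, among them Adipoq, which encodes adiponectin, at 2899 ± 58.6 CPM in siErk3 cells and 5140 ± 369 CPM in siNTC cells. The remaining gene, Cd36, was called higher (log2 fold change 0.19, edgeR adjusted p = 0.0223), a call lost under 5 alternatives. Of 6 preadipocyte markers measured, all 6 were lower. Among all genes tested, 23.8% were called lower and 24.9% higher. Of 11 macrophage and leukocyte markers, 3 were in the table. Their summed level was 20.4 to 25.0 CPM in siErk3 libraries and 9.89 to 14.5 CPM in siNTC libraries, with Cd14 and Cd68 higher and Csf1r not passing, and Ptprc, Adgre1, Itgam and Lyz2 were among those not in the table. Of 5 endothelial markers only Pecam1 was measured, at 1.17 to 1.58 CPM in siErk3 libraries and 0.516 to 1.26 CPM in siNTC libraries. Cd68 and Pecam1 were each above 1 CPM in 1 siNTC library only, so both needed siErk3 libraries to pass the filter of the table. The call of Cd68 is thus not free of that filter. The part of these markers in the IFIT levels was not tested.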

How the data were processed

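RNA sequencing of poly(A) RNA covered 4 siErk3 and 4 siNTC libraries, grouped by their labels. The authors deposited raw counts per gene for 18088 genes, all above 1 CPM in at least 4 libraries, and a table of their own edgeR comparison with fold changes and p-values, which was not used. The submitters' processing notes name bcl2fastq, FastQC, Bowtie2, edgeR and mm10, and the counting program, annotation and strand setting are not given in the sources used here. The kit does not mark strand.

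The counts were filtered by filterByExpr (minimum count 10, minimum total 15), scaled by TMM and fitted with the quasi-likelihood test of edgeR 4.0.16 under R 4.3.3. P-values were adjusted by Benjamini-Hochberg over 17972 genes and called under 0.05. The common coefficient of variation between replicates that edgeR estimated beyond counting error was 6.08%. Whether this variation was biological or technical cannot be told, since separate cultures are not stated. Replicates of a group differed by more than sampling noise. Intervals hold counting error alone, because they were computed from counts pooled over the libraries of a group. PCR copies were not marked by molecular identifiers, and the intervals do not allow for such copies. The fits were also run on simulated counts with known changes, whose folds were smaller than those of most IFIT genes here. The outcome of that run is not given here.

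The members and lists were chosen with earlier results of these data known, and 1 gene of the STAT and IRF list is not reported here. Named are the members, Mapk6, measured genes within 300 kb, the most abundant genes of each list (up to 4 called in each direction and up to 3 uncalled) and the 5 genes most like each member, of which a part is discussed. Alternatives were DESeq2 1.42.0, limma-voom (limma 3.58.1), the likelihood-ratio test, other scalings and filters, a 2-fold threshold, the replicate number as a block, Ifit3 and Ifit3b summed, and each library left out. Coordinates and transcripts come from GENCODE M21, promoters from RefSeq (GRCm38.p6). Other steps used Python 3.11.15, scipy 1.17.1 and Biopython 1.88.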

Additional observations from a re-analysis of the deposited data

Results flagged for a closer look

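A single library stood apart from the other 3 of its group in 11 of 174 groups of CPM values examined, by Dixon's criterion at 95%. Chance gives about 1 in 20, which is 8.7 of these groups, so the number flagged was close to that. Among the IFIT genes this was Ifit1bl1 in siErk3 replicate 4, at 15.5 CPM against 12.5 to 12.8 CPM in the other siErk3 libraries. The same library was high for Jak1 (205.7 CPM against 192.3 to 194.3), Lpl (6805 CPM against 5893 to 5989) and Gm4070 (200.8 CPM against 150.1 to 154.1), and low for Gm7582 (11.3 CPM against 12.6 to 12.8). Cidec stood at 1432 CPM in siErk3 replicate 3 against 1339 to 1355 CPM in the others.

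In siNTC replicate 3, Eif3j2 was at 34.3 CPM against 44.2 to 44.5 CPM, Dlk1 at 55.7 CPM against 48.86 to 49.97 CPM and Oas1g at 0 CPM against 0.103 to 0.105 CPM. Apol9b was at 0.526 CPM in siNTC replicate 4 against 0.413 to 0.418 CPM, and Gm7609 at 0.103 CPM in siNTC replicate 2 against 0 CPM. The last 3 differences amount to a few counts.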

How the results depend on the processing

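The IFIT calls did not depend on the settings tried: 6 genes were higher under each alternative, and 5 features were when Ifit3 and Ifit3b were summed. Their log2 fold changes spanned 9.82 to 10.58 for Ifit1, 7.20 to 8.14 for Ifit1bl1 and 4.94 to 5.52 for Ifit1bl2. The spans were 8.19 to 8.36 for Ifit2, 8.305 to 8.52 for Ifit3 and 7.865 to 8.021 for Ifit3b. With Ifit3 and Ifit3b summed the value was 8.23, and that of Mapk6 spanned -3.13 to -2.97. In siNTC cells depth limits Ifit1bl1 (2 counts) and Ifit1 (14 counts). With 1 count added, Ifit1bl1 also lost ground to Ifit2 (-1.68) and to Ifit3b (-1.37), each with an adjusted exact permutation p of 0.03297. With 1 library left out, 3 against 4 cannot reach 0.05, so those ratios carry no test.

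Counts over all genes moved under the 2-fold threshold to 495 higher and 113 lower. Library sizes only shifted the median of all genes by 0.09 (5849 higher, 3139 lower) and upper-quartile scaling by -0.07 (3556 higher, 5394 lower). The 2-fold threshold left 0 receptor and JAK genes, 0 cap genes and 0 eIF3 subunits in either direction, 7 sensors higher and 0 lower, and 0 STAT and IRF genes lower. Library sizes only gave 0 lower receptor and JAK genes, 0 lower STAT and IRF genes and 8 higher cap genes. Sensors called lower numbered 2 under upper-quartile scaling, the 5 CPM filter, the likelihood-ratio test, limma-voom and the replicate block, and 1 to 2 with a library left out (2 without siErk3 replicate 2 or siNTC replicate 4), Ticam1 being the second. Higher eIF3 subunits numbered 1 under upper-quartile scaling and 3 to 6 with a library left out (3 without siErk3 replicate 2, 3 or 4).

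Same-numbered libraries did not deviate together (correlations 0.0123, -0.000474, 0.0554 and -0.0158), so no pairing by number was seen. Whether libraries of the same number shared a culture cannot be told from these values. The replicate block gave 4501 higher and 4292 lower genes.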
